A study of Mus musculus with 20 samples.

Results

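The matrix metalloproteinases (Mmp genes), the ADAMTS proteases (Adamts), the ADAMTS-like proteins (Adamtsl) and the tissue inhibitors of metalloproteinases (Timp) were followed through the neonatal mouse heart. Members were chosen by symbol alone, as every gene of the count tables whose symbol is one of these stems and a number, which gave 51 of the 55367 genes listed: 23 Mmp, 19 Adamts, 5 Adamtsl and 4 Timp genes. Of these, 41 passed the filter on low counts and were tested (15 Mmp, 17 Adamts, 5 Adamtsl and 4 Timp genes), among 16598 tested genes in all. Polyadenylated RNA had been sequenced from hearts of C57BL/6J pups at postnatal day 4. The 4 groups of 5 libraries, each labelled as an individual mouse, were left atria after hyperoxia (100% oxygen since birth), left atria in room air (21% oxygen), left ventricles after hyperoxia and left ventricles in room air. The dams of all pups changed between both atmospheres daily, and sex was not labelled.

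Enzymes of these families, secreted or anchored in the membrane, cut collagens, proteoglycans, elastin and glycoproteins of the extracellular matrix, and they release growth factors held in it. They are made as inactive precursors, and the Timp proteins block their active sites, so a transcript level does not give an activity. In the developing heart, ADAMTS proteases that cut the proteoglycan versican take part in trabeculation and valve remodelling.

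The libraries held 26510081 to 38244117 counts. Levels are given in CPM, counts scaled to TMM-adjusted library sizes. The light chain Myl7 of atrial muscle lay between 4325 and 11369.5 CPM in atria and between 2.66 and 530 CPM in ventricles, and Myl2 of ventricular muscle between 5.59 and 328 CPM in atria and between 14326 and 28928 CPM in ventricles, so the tissues matched their labels. All 10 room-air libraries had more reads from Y-linked genes than from Xist, while only hyperoxic atrium 2 and hyperoxic ventricles 2 and 6 did so among the hyperoxic libraries, so oxygen level and Y-linked reads largely coincide. Values by library are given in the order of the labels' numbers, which are 1 to 5 except in hyperoxic ventricles (1, 2, 4, 5 and 6). A length slope (the regression of a gene's log2 CPM, less its chamber mean, on log2 exon length) falls where short transcripts weigh more. Hyperoxic atria 2 and 4 had slopes of -0.283 and -0.277 and room-air ventricle 4 one of -0.215, against -0.0677 to 0.131 in the 17 others. Among the 41 tested members, 22 had their 2 lowest hyperoxic atria in numbers 2 and 4. Exons of Adamts7, Adamts9, Mmp11, Mmp19, Mmp28 and Timp3, and of other genes named so below, share bases with a gene on the opposite strand, whose reads may be counted with theirs.

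Per kilobase of exon, Mmp2 (gelatinase A, which cuts denatured and basement-membrane collagen) had the highest level of all members in each of the 4 groups. It averaged 133 ± 26.5 CPM per kb in hyperoxic atria and 122 ± 8.01 in room-air atria, and 46.3 ± 2.19 in hyperoxic ventricles and 41.2 ± 2.71 in room-air ventricles (SD, n = 5 each). Next in atria came Timp2, an inhibitor that also helps to activate the Mmp2 precursor, at 71.6 ± 4.42 CPM per kb in hyperoxic and 113 ± 7.37 in room-air atria. Next in ventricles came the membrane-anchored protease Mmp15, at 36.9 ± 4.24 CPM per kb in hyperoxic and 39 ± 2.42 in room-air ventricles. At the other end, 5 members had no count in any library: the collagenase genes Mmp1a (annotated as a polymorphic pseudogene) and Mmp1b, the matrilysin gene Mmp7, the stromelysin gene Mmp10 and Mmp20, a protease of tooth enamel. The other 5 members under the filter were Adamts13, the von Willebrand factor protease, with at most 4 counts in a library, Adamts16 with at most 20, Mmp21 with at most 4, Mmp24 with at most 5 and Mmp27 with at most 15.

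**Figure D1:**
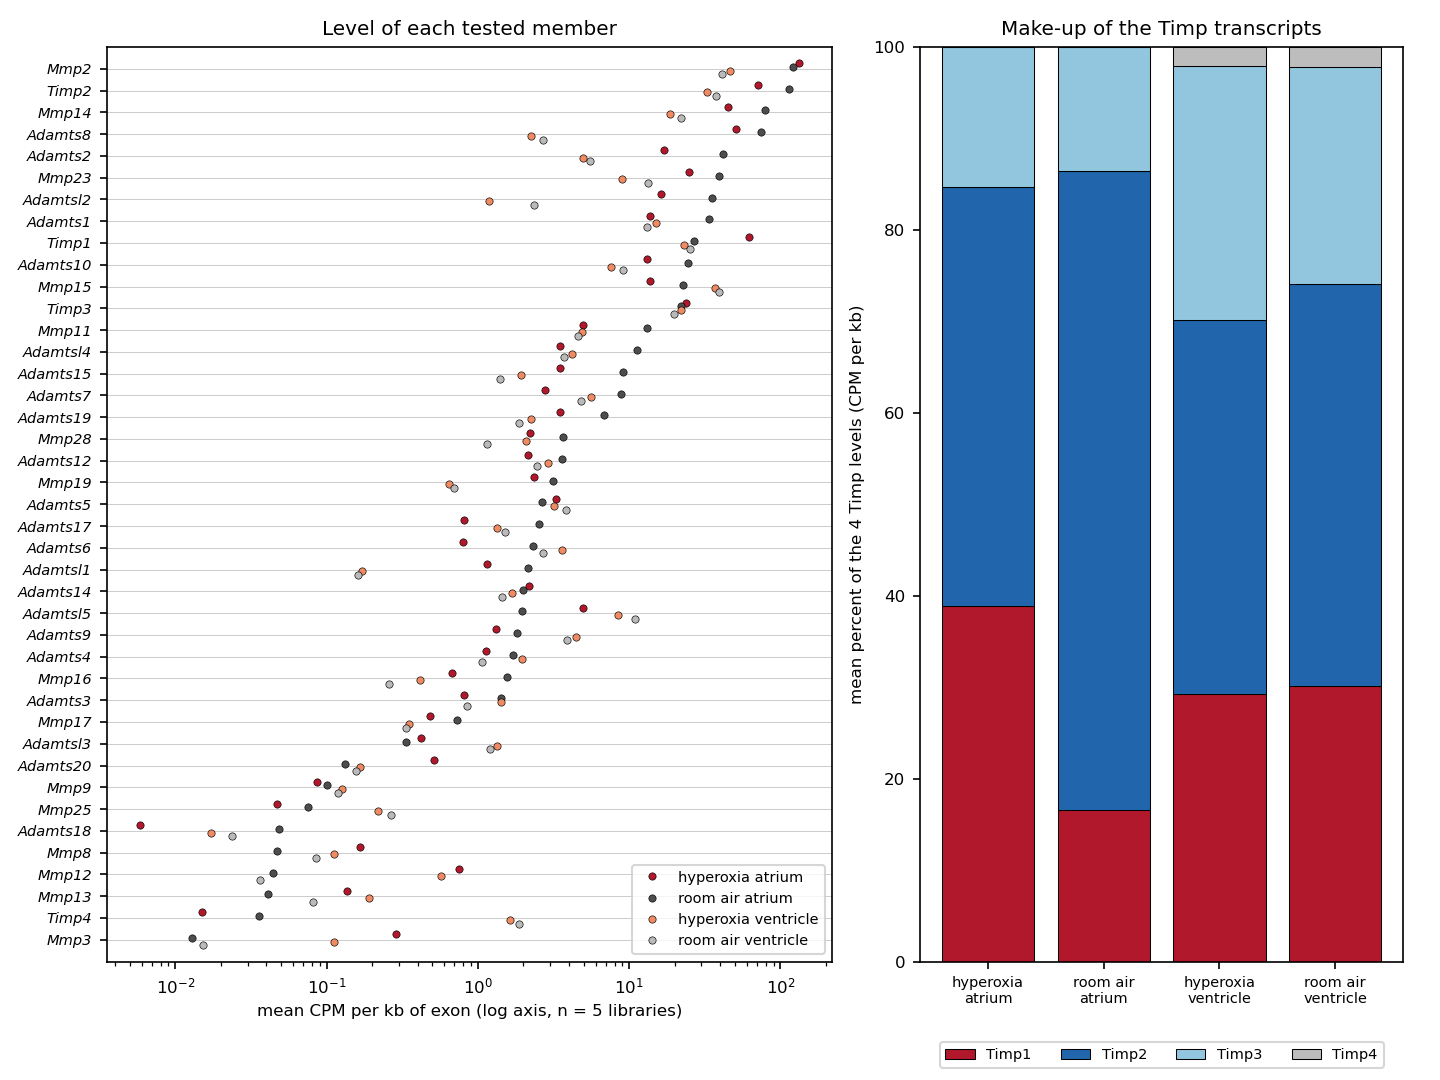
Left, mean level of each tested member in CPM per kb of exon on a log axis, 1 point per group of 5 libraries, ordered by the level in room-air atria; Mmp2 has the highest level in all 4 groups. Right, mean share of each Timp gene in the summed Timp level per kb; Timp1 made up 38.9% in hyperoxic atria and 16.6% in room-air atria.

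Among the 51 members, 10 Mmp genes lie side by side in a cluster at chr9:7272514-7699585 (GRCm38). They encode secreted enzymes, except that Mmp1a is annotated as a polymorphic pseudogene, and AP-1 transcription factors are known regulators of several of them. Of these 10 genes, 5 had no count and Mmp27 was too low to test, and 4 could be tested (Mmp12, Mmp3, Mmp13 and Mmp8). These 4 were called higher in hyperoxic atria, where 19.7% of all genes were higher and 24.2% lower. Nothing is read from that count, since the cluster was singled out after its values had been seen and Mmp3, Mmp13 and Mmp8 reached the filter on low counts almost entirely through hyperoxic libraries. With a filter at 1 CPM these 3 genes were not tested, and 5 members rose and 24 fell in hyperoxic atria.

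The promoter windows of Mmp12, Mmp3 and Mmp13 are printed because they are the tested members with a listed match to TGANTCA. That of Timp1 is printed because it is the inhibitor that rose, and it holds no exact match. Only exact matches were searched, and variants of the AP-1 site, such as the tgagtaa in the Timp1 window, are not marked. Timp1 is therefore no example of a promoter without AP-1 sites. Each window runs from 250 bases before to 50 bases after a RefSeq transcript start (GRCm38.p6). Capitals mark matches to TGANTCA (the AP-1 consensus, a palindrome, so read on both strands) and to TATAAA (the TATA box, searched on both strands), and no matches overlap.
Mmp12: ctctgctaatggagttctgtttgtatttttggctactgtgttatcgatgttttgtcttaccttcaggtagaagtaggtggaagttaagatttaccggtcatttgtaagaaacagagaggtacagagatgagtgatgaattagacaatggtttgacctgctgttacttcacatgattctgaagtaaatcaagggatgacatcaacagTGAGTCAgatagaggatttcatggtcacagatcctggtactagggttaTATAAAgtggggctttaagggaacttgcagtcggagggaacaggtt
Mmp3: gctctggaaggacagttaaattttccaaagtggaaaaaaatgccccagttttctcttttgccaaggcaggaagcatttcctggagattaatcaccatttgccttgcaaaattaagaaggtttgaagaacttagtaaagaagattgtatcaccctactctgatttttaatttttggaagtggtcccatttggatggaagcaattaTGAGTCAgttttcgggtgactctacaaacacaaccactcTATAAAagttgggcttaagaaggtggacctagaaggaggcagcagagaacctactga
Mmp13: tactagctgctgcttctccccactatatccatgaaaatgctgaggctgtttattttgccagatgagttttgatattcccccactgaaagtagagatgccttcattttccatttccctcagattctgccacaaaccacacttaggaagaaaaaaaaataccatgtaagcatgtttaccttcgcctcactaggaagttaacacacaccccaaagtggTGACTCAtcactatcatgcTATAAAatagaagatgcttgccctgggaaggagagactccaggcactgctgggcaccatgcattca
Timp1: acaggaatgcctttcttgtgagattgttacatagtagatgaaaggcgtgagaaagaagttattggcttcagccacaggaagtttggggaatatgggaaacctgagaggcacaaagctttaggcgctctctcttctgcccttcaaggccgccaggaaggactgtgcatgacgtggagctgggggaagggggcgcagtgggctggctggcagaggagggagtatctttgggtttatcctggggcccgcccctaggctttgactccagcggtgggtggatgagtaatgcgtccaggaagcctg
They lie at chr9:7347124-7347423, chr9:7445572-7445871, chr9:7272264-7272563 and chrX:20869916-20870215, all on the plus strand. For Mmp12 the window is 1 of 2 listed, and the other holds no TGANTCA. The AP-1 match began 44 bases before the start in Mmp12, 46 before it in Mmp3 and 35 before it in Mmp13. The TATAAA match began 7 bases before the start in Mmp3, 16 before it in Mmp13 and at base 5 of the transcript in Mmp12. Of 32851 windows in the table, 7.81% held TGANTCA, 13.6% held TATAAA and 1.54% held both. A window was listed for 36 of the 51 members and for 27 of the 41 tested ones. TGANTCA was found in 3 of these 27, and among all 36 it was found in 8, each a gene of the chromosome 9 cluster that also held TATAAA in the same window. A match is a string of letters and was not tested for binding.

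Mmp12, the macrophage elastase, rose in both chambers. It had 4.82, 7.17, 6.15, 3.61 and 5.56 CPM in hyperoxic atria, against 0.397, 0.235, 0.365, 0.336 and 0.260 CPM in room-air atria. It had 1.52, 1.24, 5.67, 6.62 and 5.59 CPM in hyperoxic ventricles, against 0.429, 0.266, 0.233, 0.205 and 0.186 CPM in room-air ventricles. Groups did not overlap in either chamber, but the hyperoxic ventricles fell into a low pair (numbers 1 and 2) and a high trio. The log2 difference between hyperoxia and room air was 4.09 ± 0.41 (SE) in the atrium (adjusted p = 8.6e-08) and 3.95 ± 0.44 (SE) in the ventricle (adjusted p = 4.5e-05), a 17-fold and a 15.5-fold increase. These and all later adjusted p are from edgeR's quasi-likelihood test with Benjamini-Hochberg adjustment over all 16598 genes tested. The threshold for a call was 0.05. With Myl7 as a covariate the ventricular log2 difference was 2.72 (adjusted p = 0.039), and Mmp12 passed in both chambers under every alternative setting run. All room-air libraries were at or below 0.429 CPM, so Mmp12 passed the filter at 1 CPM only through hyperoxic libraries, where it was high. The calls under that filter are therefore no separate evidence of the rise. Its exons share bases with Mmp1b on the opposite strand, which had no count.

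Macrophage markers moved beside it. In the atrium 8 of 12 rose and 0 fell, where 19.7% of all genes rose and 24.2% fell. The summed level of the 12 markers was 305 to 480 CPM in hyperoxic and 237 to 253 CPM in room-air atria. In the ventricle 3 of 12 markers rose (Mpeg1, Adgre1 and Cx3cr1) and 0 fell, where 5.64% of all genes rose and 5.28% fell. The sums of the 12 were 154 to 185 CPM in hyperoxic and 117 to 153 CPM in room-air ventricles, and no marker was at 0 in any group. The high trio of ventricles for Mmp12 (numbers 4, 5 and 6) had macrophage sums of 155, 156 and 158 CPM and the low pair 154 and 185 CPM. The part of macrophages in the rise was not tested. In RNA of whole tissue, fewer or more cells of a type and less or more RNA per cell cannot be told apart.

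The 3 remaining cluster genes were low everywhere, so their counts are given. Mmp3 (stromelysin-1, which cuts proteoglycans and activates other precursors) had 28, 25, 7, 16 and 17 counts in hyperoxic atria, against 0, 0, 0, 0 and 4 in room-air atria. Mmp13 (collagenase-3) had 14, 12, 9, 13 and 18 counts in hyperoxic atria, against 3, 8, 1, 5 and 4 in room-air atria. Mmp8 (the collagenase of neutrophils) had 20, 26, 8, 14 and 5 counts in hyperoxic atria, against 0, 6, 4, 7 and 5 in room-air atria. The groups did not overlap for Mmp3 and Mmp13, and they did for Mmp8. The log2 differences were 4.35 ± 1.08 for Mmp3, 1.70 ± 0.43 for Mmp13 and 1.77 ± 0.64 for Mmp8 (SE; adjusted p = 0.0025, 0.0029 and 0.029). Mmp3 rests on 4 counts in 1 room-air atrium, so its size depends on the smoothing of low counts, and Mmp3 passed the filter only through hyperoxic libraries. Mmp13 did not pass with Y-linked reads as a covariate (1.36, adjusted p = 0.05). The call of Mmp8 was lost in 10 of 30 alternatives. These were the fits without hyperoxic atrium 1, 2 or 4 (adjusted p = 0.055, 0.097 and 0.051) or room-air atrium 1 or 3 (0.068 and 0.06), without a filter (0.061), once length slope was a covariate (0.15) or joined to Y-linked reads (0.12), without the 3 libraries of low slope (0.19), and with the replicate block.

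None of these 3 genes passed in the ventricle. Mmp13 had 15, 11, 19, 15 and 11 counts in hyperoxic ventricles, against 9, 4, 5, 4 and 7 in room-air ventricles, which did not overlap, with a log2 difference of 1.20 ± 0.41 (SE) and adjusted p = 0.061. Mmp3 had 0, 4, 20, 1 and 0 counts in hyperoxic ventricles, against 0, 0, 3, 0 and 1 in room-air ventricles, so that 1 library (number 4) held most of them. Mmp8 had 12, 10, 0, 11 and 7 counts in hyperoxic ventricles, against 3, 3, 9, 3 and 10 in room-air ventricles. Of 10 neutrophil markers 5 could be tested. Of these, 3 rose in hyperoxic atria (19.7% of all genes did) and 0 passed in the ventricle (10.9% of all genes did). The summed level of all 10 markers was 4.93 to 10.6 CPM in hyperoxic and 2.92 to 7.32 CPM in room-air atria. In room-air atria 1 of the 10 was at 0, as was 1 in room-air ventricles. The part of neutrophils in the Mmp8 counts was not tested.

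The first full comparison set hyperoxic against room-air atria. Here 34 of the 41 tested members passed, 8 higher and 26 lower. Among all genes tested 43.9% passed, 19.7% higher and 24.2% lower. The median log2 difference was -0.68 over the tested members and -0.06 over all genes. The libraries of both groups did not overlap for 29 members (6 higher, 23 lower), against 32.9% of all genes. Some members, such as Mmp3 and Adamts18, passed the filter on low counts only or mostly through the group where they were high. At a filter of 1 CPM 36 members were tested, of which 5 rose and 24 fell. By family, 13 of 17 Adamts genes fell and 2 rose, 8 of 15 Mmp genes fell and 4 rose, 3 of 5 Adamtsl genes fell and 1 rose, and 2 of 4 Timp genes fell and 1 rose. Without the 3 libraries of low length slope 10 members rose and 25 fell, with the slope as a covariate 10 rose and 20 fell, and with the slope and Y-linked reads as covariates 8 rose and 18 fell.

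**Figure D2:**
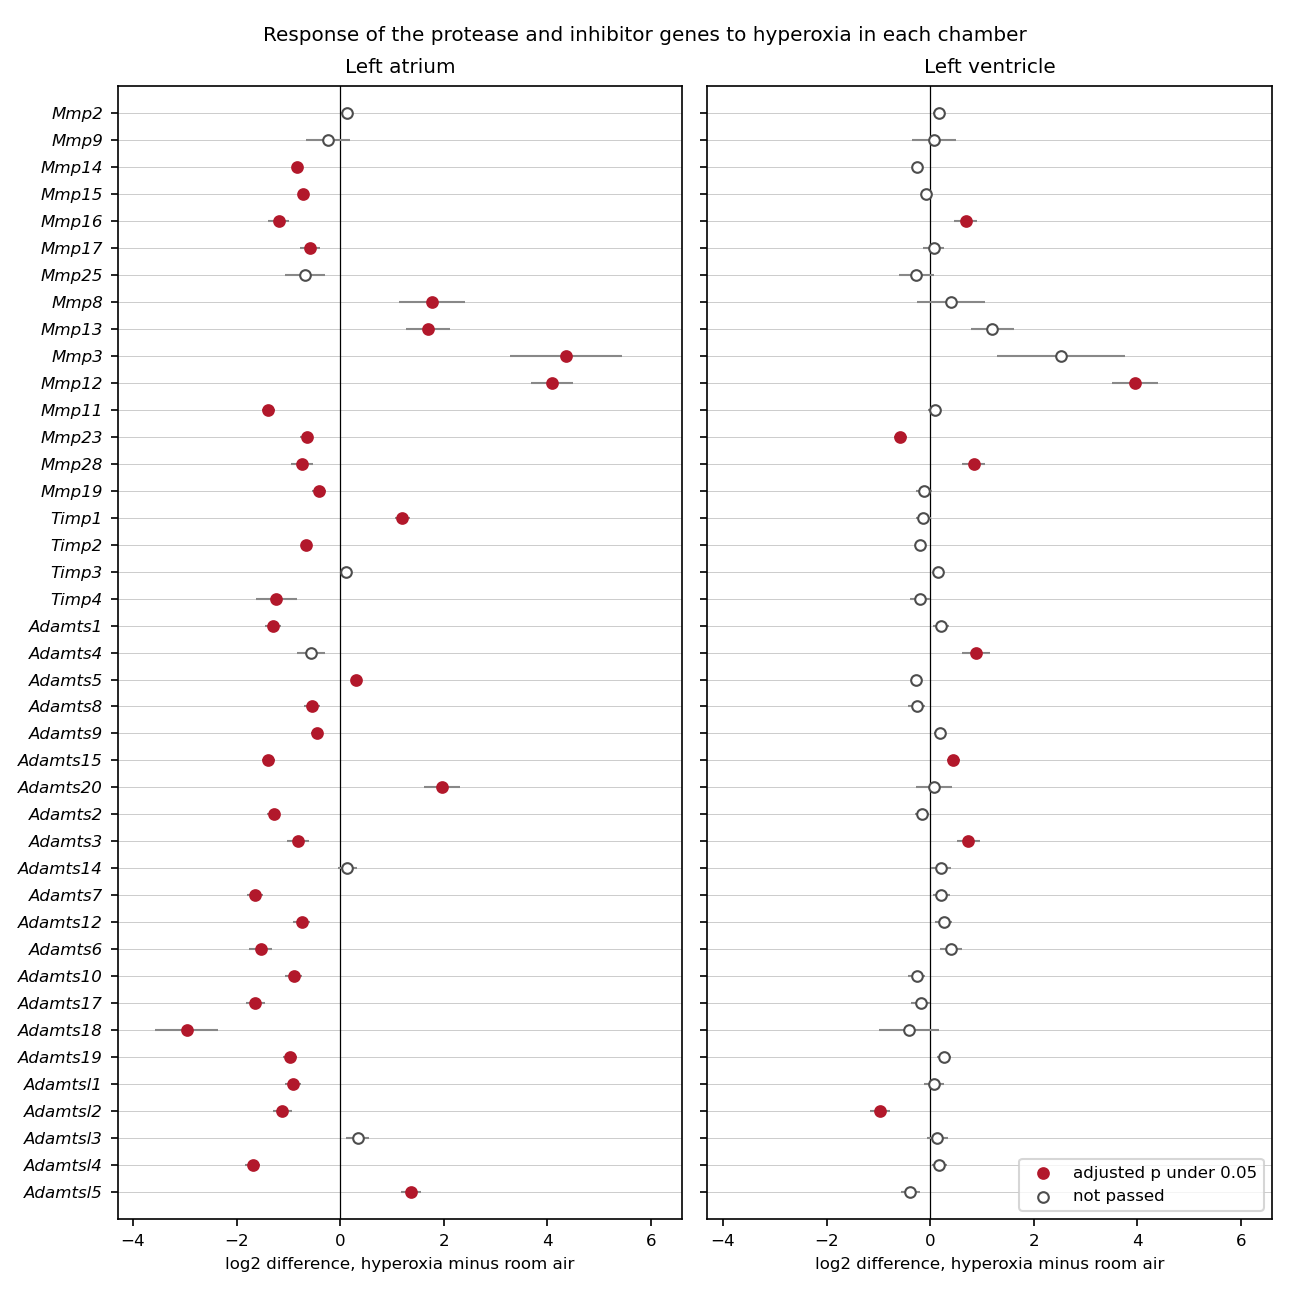
Log2 difference between hyperoxia and room air for the 41 tested members in atrium (left panel) and ventricle (right panel), ordered by role (points, estimate; bars, SE; n = 5 libraries per group; filled, adjusted p under 0.05). In the atrium 26 filled points lie left of 0 and 8 right of it, and in the ventricle 8 points are filled.

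Markers of other cells moved in the same libraries, where 19.7% of all genes rose and 24.2% fell. Of 12 fibroblast markers 10 fell and 1 rose in hyperoxic atria, with a summed level of 8058 to 11208 CPM in hyperoxic and 15533 to 16618 CPM in room-air atria. Of 12 endothelial markers 10 fell and 1 rose, with sums of 1253 to 1604 CPM in hyperoxic and 1659 to 1993 CPM in room-air atria. Of 10 smooth muscle and pericyte markers 6 fell and 2 rose, of 8 endocardial and valve markers 5 fell and 1 rose, and of 8 epicardial markers 3 rose and 0 fell. Of 10 atrial cardiomyocyte markers 2 rose and 4 fell, with sums of 26334 to 50638 CPM in hyperoxic and 18423 to 23611 CPM in room-air atria, the highest in hyperoxic atria 2 (50638) and 4 (48517). Of 8 ventricular cardiomyocyte markers 1 rose and 6 fell, with sums of 655 to 1006 CPM in hyperoxic and 807 to 1274 CPM in room-air atria. No marker of these lists was at 0 in a group. Their part in the changes of the members was not tested. The fibroblast markers Col1a1, Col1a2, Col3a1, Dcn and Lum and the valve marker Hapln1 are also among the matrix substrates below, so those counts are not separate observations.

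Among the membrane-type enzymes 4 of 5 tested fell in hyperoxic atria, where 24.2% of all genes fell. Mmp14, which activates the Mmp2 precursor at the cell surface and cuts fibrillar collagen, had 315, 272, 272, 238 and 238 CPM in hyperoxic atria, against 527, 499, 436, 442 and 468 CPM in room-air atria. Mmp15 had 73.5, 84, 75.7, 63.5 and 71.7 CPM in hyperoxic atria, against 119, 118, 119.9, 109 and 142 CPM in room-air atria. For both genes all hyperoxic atria lay below all room-air atria, with log2 differences of -0.83 ± 0.10 (SE) and -0.72 ± 0.09 (SE) (adjusted p = 1.3e-06 and 2e-06). Mmp16 fell with a log2 difference of -1.19 ± 0.20 (SE) with adjusted p = 5.2e-05, and Mmp17, held by a lipid anchor, with one of -0.59 ± 0.19 (SE) with adjusted p = 0.018. The call of Mmp17 was lost without hyperoxic atrium 4 (adjusted p = 0.055) or room-air atrium 5 (0.051), with Y-linked reads as a covariate (-0.35, adjusted p = 0.26), with the length slope (-0.56, 0.053) and with both (-0.19, 0.69). Mmp25, the other lipid-anchored enzyme, averaged 0.249 ± 0.0858 CPM in hyperoxic and 0.399 ± 0.110 CPM in room-air atria (SD, n = 5) and did not pass (adjusted p = 0.17).

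The gelatinases did not pass. Mmp2 had 571, 374, 468, 347 and 473 CPM in hyperoxic atria, against 440.4, 436, 385, 385 and 404 CPM in room-air atria, with hyperoxic atria 2 and 4 below every room-air atrium and the other 3 above. Its log2 difference was 0.12 ± 0.11 (SE) (adjusted p = 0.36), and without the 3 libraries of low length slope it was 0.30 (adjusted p = 0.0049). Mmp2 also passed, higher in hyperoxic atria, with all libraries kept in other fits. These were voom, which weighs libraries by quality, and the fits with the length slope, alone or with Y-linked reads, as covariates. Whether Mmp2 passed thus depends on the setting. Mmp9 (gelatinase B) averaged 0.304 ± 0.175 CPM in hyperoxic and 0.359 ± 0.145 CPM in room-air atria (adjusted p = 0.69).

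The furin-activated enzymes Mmp11, Mmp23 and Mmp28 all fell in hyperoxic atria, where 24.2% of all genes fell. Mmp11 (stromelysin-3, known from stromal cells around tumours) had 15.1, 14.6, 11.8, 13.9 and 13.8 CPM in hyperoxic atria, against 37, 38.5, 32.6, 36.1 and 37.5 CPM in room-air atria. The groups lay far apart and hyperoxic atria 2 and 4 were within the range of the others, with a log2 difference of -1.39 ± 0.12 (SE) (adjusted p = 1.5e-08). Mmp23, which carries a cysteine-rich array in place of the usual hemopexin domain, differed by -0.65 ± 0.12 (SE) with adjusted p = 0.00021, and Mmp28 (epilysin) by -0.74 ± 0.21 (SE) with adjusted p = 0.0072. Mmp28 did not pass once length slope was a covariate (log2 difference -0.28, adjusted p = 0.097). Mmp19 averaged 8.34 ± 1.05 CPM in hyperoxic and 11.1 ± 0.344 CPM in room-air atria and fell with a log2 difference of -0.41 ± 0.14 (SE) (adjusted p = 0.022), a call lost in 8 of 32 alternatives. For Mmp19 these were the fits without hyperoxic atrium 2 (adjusted p = 0.063) or hyperoxic ventricle 5 (0.054), without a filter (0.058), with a filter at 1 CPM (0.053), with Y-linked reads (0.091), the slope (0.14) or both (0.37) as covariates, and without the 3 libraries of low slope (0.075).

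The inhibitors went different ways in the atrium. Timp1, the inducible inhibitor encoded on the X chromosome at chrX:20870166-20874735, had 48.8, 68.5, 54.5, 67.1 and 35.3 CPM in hyperoxic atria, against 24.9, 22.4, 23.4, 24.7 and 23.8 CPM in room-air atria. Timp2 (chr11:118301069-118355740) had 295, 296, 277, 255 and 271 CPM in hyperoxic atria, against 443, 435, 439.8, 405 and 485 CPM in room-air atria. Neither gene's groups overlapped: Timp1 rose with a log2 difference of 1.20 ± 0.14 (SE) (adjusted p = 5.2e-07) and Timp2 fell with one of -0.66 ± 0.10 (SE) (adjusted p = 8.7e-06). For Timp1, whose transcript is the shortest of all members at 888 bases of exon, the highest hyperoxic atria were numbers 2 and 4, and the log2 difference without the libraries of low length slope was 0.96 (adjusted p = 2.4e-07). With Y-linked reads as a covariate it was 1.29 (adjusted p = 1.2e-05).

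Timp3, which binds to the matrix and also blocks ADAMTS proteases, had 210.3, 163, 213, 162 and 219.7 CPM in hyperoxic atria, against 168, 179, 192, 166 and 188 CPM in room-air atria. Hyperoxic atria 2 and 4 were the lowest and the other 3 the highest of the 10, so the groups overlapped, with a log2 difference of 0.12 ± 0.10 (SE) (adjusted p = 0.38) over all libraries and of 0.26 (adjusted p = 0.018) without those of low length slope. Timp3 also passed, higher in hyperoxic atria, under voom and with the length slope, alone or with Y-linked reads, as covariates. Timp4 had only 1, 7, 3, 2 and 3 counts in hyperoxic atria, against 7, 9, 11, 6 and 7 in room-air atria. It was close to 0 in both, and its log2 difference was -1.23 ± 0.40 (SE) (adjusted p = 0.016), which did not pass with Y-linked reads as a covariate (-0.77, adjusted p = 0.1).

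In the summed Timp level per kilobase, Timp1 took 38.9% ± 7.18 in hyperoxic and 16.6% ± 1.17 in room-air atria, and Timp2 45.8% ± 4.04 in hyperoxic and 69.9% ± 1.15 in room-air atria (SD, n = 5). The sum itself was 157 ± 13.2 CPM per kb in hyperoxic and 162 ± 8.09 in room-air atria, and that of the Mmp genes 228 ± 29.7 in hyperoxic and 285 ± 16.4 in room-air atria. The ratio of the Mmp to the Timp sum ranged from 1.21 to 1.75 in hyperoxic and from 1.62 to 1.89 in room-air atria, and these ranges overlap. The summed level of the Adamts genes was 117 ± 21.1 CPM per kb in hyperoxic and 217 ± 6.27 in room-air atria.

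The proteoglycan-cutting ADAMTS enzymes split in hyperoxic atria: of 7 tested, 4 fell, 2 rose and 1 did not pass. Over all genes 24.2% fell and 19.7% rose. Adamts1, a versican protease of the embryonic heart, had 89.8, 52.3, 83.9, 60.6 and 77 CPM in hyperoxic atria, against 166, 201, 181, 150.1 and 196 CPM in room-air atria. Adamts15, another versican protease, had 40.6, 32.2, 40.5, 30.3 and 37.2 CPM in hyperoxic atria, against 81.8, 91, 96, 99 and 105 CPM in room-air atria. Neither overlapped, and the log2 differences were -1.30 ± 0.16 (SE) for Adamts1 and -1.39 ± 0.12 (SE) for Adamts15 (adjusted p = 1.2e-06 and 1e-08). Adamts8 fell with a log2 difference of -0.55 ± 0.16 (SE) with adjusted p = 0.0063 and Adamts9 with one of -0.45 ± 0.12 (SE) with adjusted p = 0.0039, and once length slope was a covariate neither passed (adjusted p = 0.05, just over the threshold, and 0.053). Adamts20, known in mice from the belted coat-colour mutant, averaged 4.63 ± 2.17 CPM in hyperoxic and 1.18 ± 0.267 CPM in room-air atria and rose with a log2 difference of 1.96 ± 0.34 (SE) (adjusted p = 7.3e-05). Adamts5 (aggrecanase-2) averaged 35.4 ± 4.00 CPM in hyperoxic and 28.5 ± 3.10 CPM in room-air atria, with overlap, and rose with a log2 difference of 0.31 ± 0.10 (SE) (adjusted p = 0.015). Adamts1 and Adamts5 are neighbours on chromosome 16, at chr16:85793827-85803113 and chr16:85856173-85901828, and passed in opposite directions, though the call of Adamts5 was lost with Y-linked reads as a covariate (adjusted p = 0.11). Adamts4 (aggrecanase-1) did not pass at 5.48 ± 2.52 CPM in hyperoxic and 8.15 ± 1.96 CPM in room-air atria (adjusted p = 0.087).

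**Figure D3:**
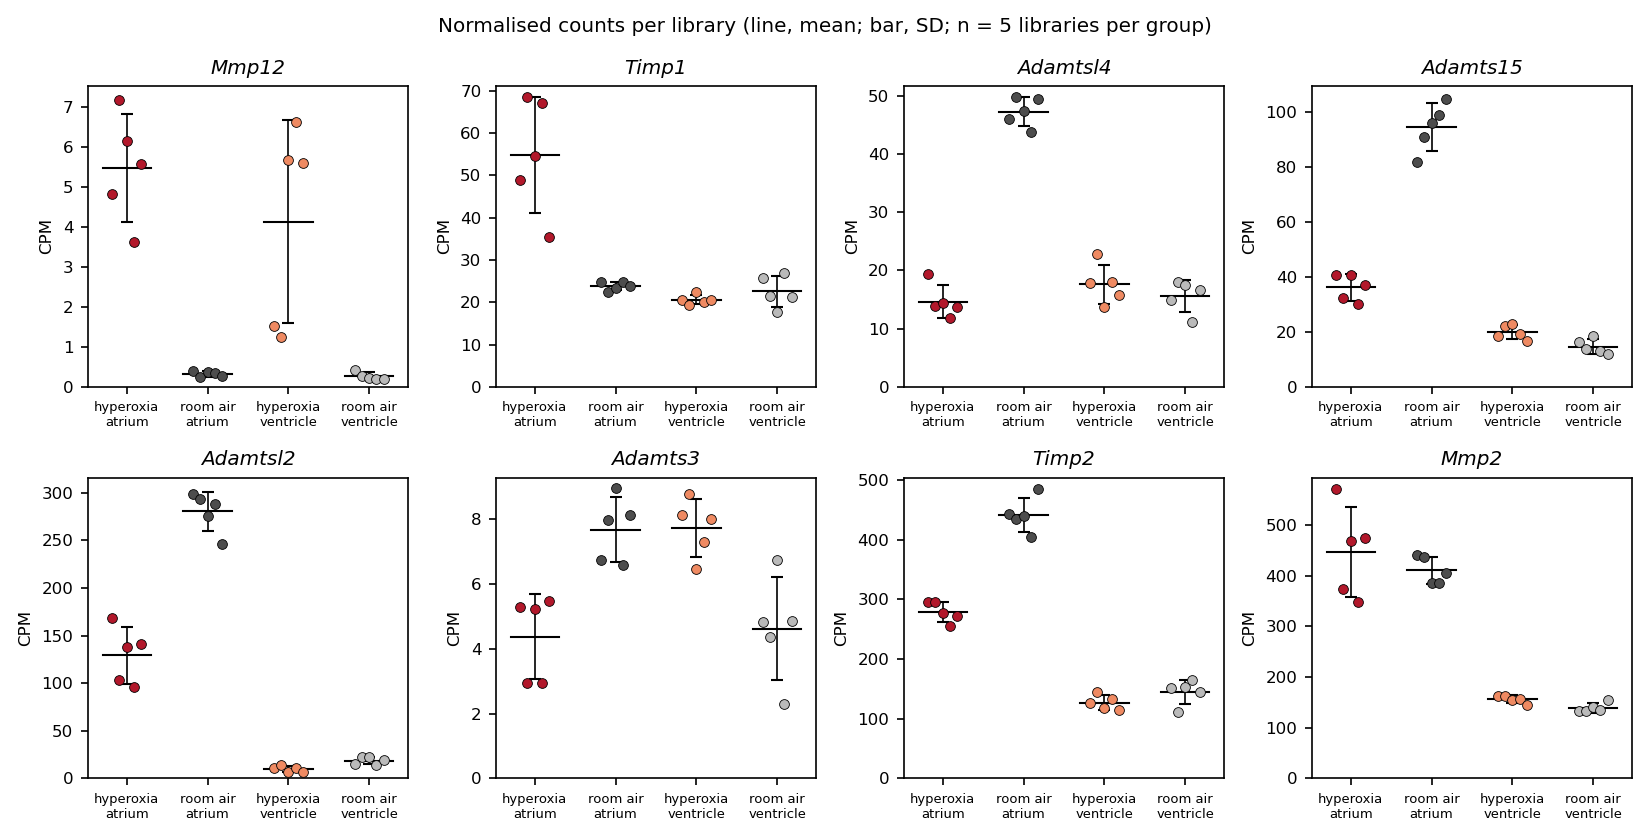
CPM in each library for Mmp12, Timp1, Adamtsl4, Adamts15, Adamtsl2, Adamts3, Timp2 and Mmp2 (points, libraries; line, mean; bar, SD; n = 5 per group; each axis starts at 0). Mmp12 was 3.61 to 7.17 CPM in hyperoxic and 0.235 to 0.397 CPM in room-air atria, and Adamtsl4 11.8 to 19.3 CPM in hyperoxic and 43.8 to 49.7 CPM in room-air atria.

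The procollagen N-proteinases trim the amino end of fibrillar procollagens. Adamts2, the main enzyme of this kind in skin and tendon, had 208, 123, 173, 119.5 and 173 CPM in hyperoxic atria, against 399.7, 412, 388, 359 and 383 CPM in room-air atria. The groups did not overlap, hyperoxic atria 2 and 4 were lowest, and the log2 difference was -1.28 ± 0.13 (SE) (adjusted p = 9.1e-08). Adamts3, better known for cutting the lymphatic growth factor VEGF-C, had 5.29, 2.95, 5.22, 2.94 and 5.47 CPM in hyperoxic atria, against 6.75, 7.98, 8.96, 6.59 and 8.15 CPM in room-air atria, a log2 difference of -0.81 ± 0.21 (SE) (adjusted p = 0.0042) that was -0.34 (adjusted p = 0.087) once length slope was a covariate. Adamts14 averaged 11.3 ± 3.91 CPM in hyperoxic and 10.3 ± 1.76 CPM in room-air atria and did not pass (adjusted p = 0.59).

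Of the other ADAMTS proteases, the 7 tested all fell in hyperoxic atria, where 24.2% of all genes fell. The 7 include Adamts18, whose fall is not read for the reason given below. Adamts7, which cuts the cartilage protein COMP, had 21.3, 15.5, 18.3, 11.5 and 21.1 CPM in hyperoxic atria, against 53.5, 57.5, 57.3, 52.8 and 54.3 CPM in room-air atria. Adamts17, mutated in humans with a Weill-Marchesani-like syndrome, had 8.22, 4.16, 6.32, 4.60 and 8.30 CPM in hyperoxic atria, against 18.5, 21.4, 19.4, 16.4 and 22.8 CPM in room-air atria. Neither overlapped, and the log2 differences were -1.65 ± 0.16 (SE) for Adamts7 and -1.64 ± 0.18 (SE) for Adamts17 (adjusted p = 4.5e-08 and 2.6e-07). Adamts6, a relative of Adamts10, had 7.85, 3.46, 7.41, 3.55 and 8.84 CPM in hyperoxic atria, against 17.6, 18.6, 21.2, 15.7 and 17.6 CPM in room-air atria, with a log2 difference of -1.54 ± 0.23 (SE) (adjusted p = 1.3e-05). Adamts19, linked in humans to heart valve disease, had 52, 35.3, 57, 43.1 and 56.9 CPM in hyperoxic atria, against 88.6, 87.4, 97.8, 99.9 and 105 CPM in room-air atria, with a log2 difference of -0.97 ± 0.14 (SE) (adjusted p = 6.7e-06). Hyperoxic atria 2 and 4 were the lowest of their group for each of these 4 genes. Adamts12, a relative of Adamts7, averaged 23.5 ± 7.08 CPM in hyperoxic and 39.4 ± 4.56 CPM in room-air atria, and Adamts10, which binds fibrillin, 108 ± 31.4 CPM in hyperoxic and 201 ± 17 CPM in room-air atria (adjusted p = 0.00072 and 0.00012). Adamts18 was low, with 1, 2, 4, 1 and 3 counts in hyperoxic atria, against 20, 23, 18, 8 and 24 in room-air atria, and a log2 difference of -2.97 ± 0.60 (SE) (adjusted p = 0.00042). It reached the filter on low counts mostly through room-air atria, the group where it was high, and was not tested with a filter at 1 CPM. Nothing is therefore read from its fall.

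The ADAMTS-like proteins have no protease domain and bind microfibrils. Adamtsl4, mutated in humans with displaced lenses, had 19.3, 13.9, 14.4, 11.8 and 13.7 CPM in hyperoxic atria, against 46, 49.7, 47.3, 43.8 and 49.5 CPM in room-air atria. This was the smallest p of all members in this comparison, with no overlap and a log2 difference of -1.69 ± 0.14 (SE) (adjusted p = 7.3e-09). Adamtsl2, which binds fibrillin and the latent TGF-beta binding protein, had 169, 103, 138, 95.5 and 142 CPM in hyperoxic atria, against 298, 294, 275, 288 and 246 CPM in room-air atria, and fell with a log2 difference of -1.12 ± 0.18 (SE) (adjusted p = 3e-05). Adamtsl1 fell as well (-0.92 ± 0.15 (SE), adjusted p = 5e-05). Adamtsl5, a fibrillin-binding relative, went the other way, with 33.5, 17.7, 28.3, 17.6 and 20.6 CPM in hyperoxic atria, against 9.32, 7.06, 10.7, 10.3 and 8.55 CPM in room-air atria. All its hyperoxic atria lay above all room-air atria, with a log2 difference of 1.36 ± 0.19 (SE) (adjusted p = 5.7e-06). Adamtsl3 did not pass (3.28 ± 1.22 CPM in hyperoxic and 2.61 ± 0.585 CPM in room-air atria, adjusted p = 0.22).

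**Figure D4:**
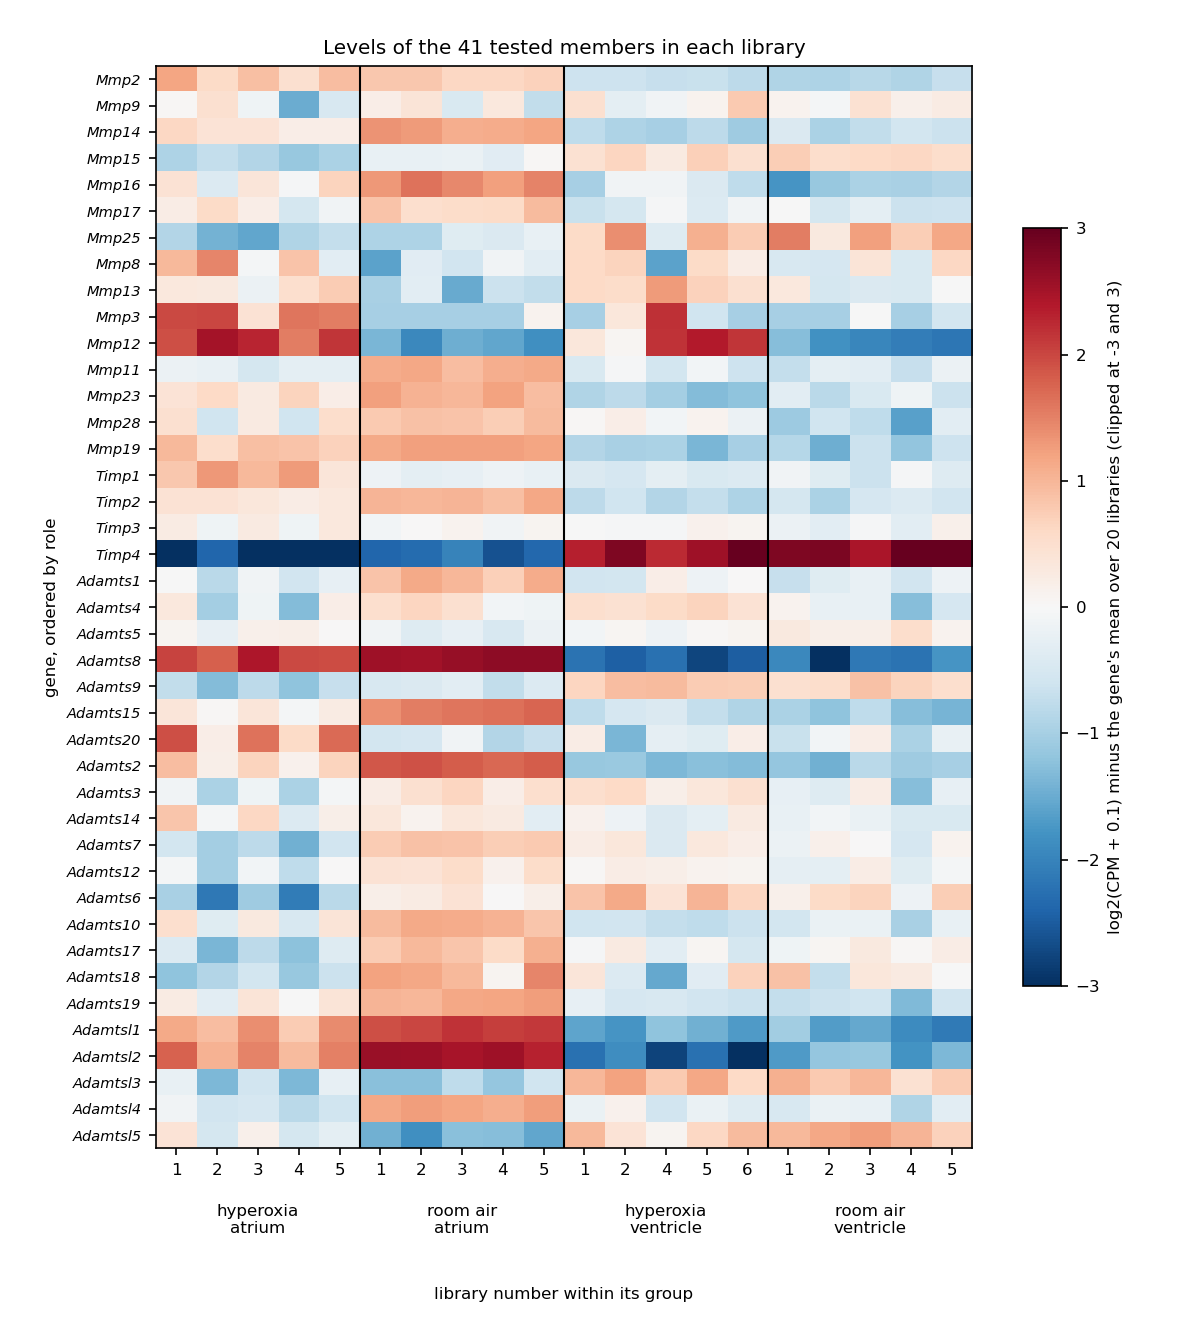
Level of each of the 41 tested members in each of the 20 libraries, as log2(CPM + 0.1) minus the gene's mean over all libraries, with colours clipped at -3 and 3; genes run by role and libraries by group. Room-air atria form the block with most red cells, and hyperoxic atria 2 and 4 are bluer than the other hyperoxic atria in many Adamts rows.

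The second comparison set hyperoxic against room-air ventricles. Here 8 of the 41 tested members passed, 6 higher and 2 lower, against 10.9% of all genes (5.64% higher, 5.28% lower). The median log2 difference was 0.09 over the tested members and -0.01 over all genes. The libraries did not overlap for 6 members (4 higher, 2 lower), against 12.4% of all genes. The count rested on few libraries: it was 4, 5, 5 and 5 without hyperoxic ventricle 2, 4, 5 or 6, and 5, 4, 3 and 5 without room-air ventricle 1, 2, 4 or 5. With Y-linked reads as a covariate 1 rose and 1 fell, and with the length slope as a covariate 2 rose and 5 fell. Of 12 fibroblast markers 2 fell, and of 12 endothelial markers 6 fell, with endothelial sums of 1986 to 2214 CPM in hyperoxic and 2529 to 2724 CPM in room-air ventricles. Their part in the results was not tested.

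Besides Mmp12, 2 genes passed in the same direction as in the atrium. Adamtsl2 had 10.4, 13.6, 7.15, 10.4 and 6.14 CPM in hyperoxic ventricles, against 15.1, 22, 22.6, 14.1 and 19.5 CPM in room-air ventricles. All hyperoxic ventricles lay below all room-air ventricles, and the log2 difference was -0.97 ± 0.19 (SE) (adjusted p = 0.0037). Mmp23 had 22.8, 24.7, 21.2, 17.4 and 18.4 CPM in hyperoxic ventricles, against 34.1, 24.5, 31, 38.9 and 27.5 CPM in room-air ventricles, overlapping narrowly at hyperoxic ventricle 2 and room-air ventricle 2, with a log2 difference of -0.58 ± 0.13 (SE) (adjusted p = 0.008). With Myl7, the atrial light chain, as a covariate neither passed (Adamtsl2 -0.87, adjusted p = 0.099, and Mmp23 -0.38, adjusted p = 0.2). Mmp23 also did not pass with Y-linked reads as a covariate (-0.50, adjusted p = 0.11) or once 3 outlying ventricles (number 4 in hyperoxia, numbers 1 and 4 in room air) were left out (-0.41, adjusted p = 0.13). Both genes were higher in atria than in ventricles, and Myl7 was 2.66 to 128 CPM in hyperoxic and 19.5 to 530 CPM in room-air ventricles.

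The other 5 genes were higher in hyperoxic ventricles. Adamts4 had 9.23, 8.94, 9.78, 10.4 and 8.85 CPM in hyperoxic ventricles, against 7.07, 5.58, 5.55, 2.63 and 4.60 CPM in room-air ventricles. Mmp28 had 8.06, 9.09, 7.48, 8.53 and 6.95 CPM in hyperoxic ventricles, against 3.67, 5.16, 4.65, 2.51 and 6.27 CPM in room-air ventricles. Neither overlapped, and room-air ventricle 4 was the lowest library of both. The log2 differences were 0.89 ± 0.27 (SE) for Adamts4 and 0.85 ± 0.22 (SE) for Mmp28 (adjusted p = 0.039 and 0.02). Adamts3 had 8.12, 8.79, 6.45, 7.30 and 8.01 CPM in hyperoxic ventricles, against 4.84, 4.37, 6.75, 2.30 and 4.86 CPM in room-air ventricles, with overlap and a log2 difference of 0.74 ± 0.22 (SE) (adjusted p = 0.035). Adamts15 had 18.5, 22.2, 23, 19.1 and 16.8 CPM in hyperoxic ventricles, against 16.2, 13.6, 18.3, 12.9 and 11.8 CPM in room-air ventricles, a smaller difference of 0.45 ± 0.12 (SE) on the log2 scale (adjusted p = 0.024). Mmp16 had 2.42, 4.61, 4.56, 3.60 and 2.89 CPM in hyperoxic ventricles, against 1.37, 2.20, 2.49, 2.46 and 2.63 CPM in room-air ventricles, with overlap and a log2 difference of 0.69 ± 0.22 (SE) (adjusted p = 0.046). Room-air ventricle 4, which has a low length slope, was the lowest of its group for Adamts3, Adamts4 and Mmp28.

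Each of these 5 calls depended on single libraries. That of Adamts4 was lost without any 1 of hyperoxic ventricles 1, 2, 4, 5 and 6 or room-air ventricles 2, 4 and 5 (adjusted p between 0.052 and 0.098). That of Adamts3 was lost without any 1 of hyperoxic ventricles 1, 2, 5 and 6 or room-air ventricles 1, 2, 4 and 5 (between 0.05 and 0.081). Adamts15 did not pass without hyperoxic ventricle 2 or 4 or room-air ventricle 2, 4 or 5 (between 0.052 and 0.066), and Mmp28 did not pass without room-air ventricle 1 or 4 (0.053 each). Mmp16 did not pass without any 1 of 14 libraries: hyperoxic atrium 3, hyperoxic ventricles 2, 4, 5 and 6, the 5 room-air atria and room-air ventricles 1, 2, 3 and 4 (between 0.051 and 0.11). With Y-linked reads as a covariate none of the 5 passed, with an adjusted p of 0.29 for Adamts4, 0.18 for Mmp28, 0.17 for Adamts3, 0.18 for Adamts15 and 0.3 for Mmp16.

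None of the 4 inhibitors passed in the ventricle. Timp1 had 20.5, 19.4, 22.4, 20.1 and 20.6 CPM in hyperoxic ventricles, against 25.7, 21.4, 17.6, 26.9 and 21.2 CPM in room-air ventricles (adjusted p = 0.55). Timp2 had 126, 145, 118, 132 and 114 CPM in hyperoxic ventricles, against 152, 112, 152, 164 and 145 CPM in room-air ventricles (adjusted p = 0.18). Timp3 had 175, 172, 173, 194 and 187 CPM in hyperoxic ventricles, against 157, 142, 173, 143 and 197 CPM in room-air ventricles (adjusted p = 0.34). All 3 overlapped between the groups. Timp4 was measurable here, with 7.68, 10.8, 7.23, 8.92 and 13.3 CPM in hyperoxic ventricles, against 10.7, 10.8, 8.41, 12.8 and 12.4 CPM in room-air ventricles, again with overlap (adjusted p = 0.5). Mmp2 had 162, 163, 154, 157 and 145 CPM in hyperoxic ventricles, against 134, 132, 140.4, 135 and 154 CPM in room-air ventricles, and Mmp14 had 122, 108, 104, 120.3 and 98 CPM in hyperoxic ventricles, against 153, 107, 123, 139.5 and 132 CPM in room-air ventricles (adjusted p = 0.29 and 0.12).

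The title of the series names a difference between the chambers, and the difference of both responses was tested directly. The atrial response was lower than the ventricular one in 21 of the 41 tested members and higher in 4, against 36.5% of all genes in either direction (19.5% lower, 17% higher). The median difference of responses was -0.64 over the tested members and -0.06 over all genes. Adamts15 led by p: its response was -1.39 ± 0.12 in the atrium and 0.45 ± 0.12 in the ventricle, a difference of -1.83 ± 0.17 (SE) with adjusted p = 1.8e-07. Adamtsl4, Mmp11 and Adamts7, which fell in the atrium and did not pass in the ventricle, differed between the chambers by -1.87 ± 0.20, -1.48 ± 0.18 and -1.87 ± 0.22 (adjusted p = 1.1e-06, 3.7e-06 and 3.7e-06). The 4 members with a higher atrial response were Timp1 (1.33 ± 0.20 (SE), adjusted p = 4.1e-05), Adamtsl5 (1.75 ± 0.26 (SE), adjusted p = 4.9e-05), Adamts20 (1.89 ± 0.48 (SE), adjusted p = 0.0049) and Adamts5 (0.58 ± 0.14 (SE), adjusted p = 0.0034).

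Adamts15, Adamts3, Mmp16 and Mmp28 passed in opposite directions in the chambers, lower in hyperoxic atria and higher in hyperoxic ventricles, and all 4 passed the test of the difference. How many of all genes passed in opposite directions was not computed, so nothing is read from this count. The other 3 genes called in both chambers, Mmp12, Adamtsl2 and Mmp23, went the same way in both. The test of the difference did not pass for them, at 0.14 ± 0.63 (SE) for Mmp12, -0.15 ± 0.26 (SE) for Adamtsl2 and -0.07 ± 0.18 (SE) for Mmp23 (adjusted p = 0.88, 0.69 and 0.78). A missed threshold does not show that the responses were alike. The difference of Adamts10 (-0.65 ± 0.23 (SE), adjusted p = 0.032) was 0.0016 once length slope was a covariate and lost its call without any 1 of 8 libraries (hyperoxic atria 2 and 4, hyperoxic ventricles 2 and 5, room-air atria 2 and 3, room-air ventricles 1 and 4), with adjusted p between 0.051 and 0.062. That of Adamts18 (-2.56 ± 0.85 (SE), adjusted p = 0.023) lost its call in 6 of 30 alternatives: without hyperoxic ventricle 6 (adjusted p = 0.062), without a filter (0.053), with the slope (0.2) or both covariates (0.34), without the 3 libraries of low slope (0.084), and with the replicate block.

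The chambers were also compared at each oxygen level. In room air 30 of the 41 tested members differed, 23 higher and 7 lower in atria, against 55% of all genes (28.7% higher, 26.3% lower). The median log2 difference, atrium minus ventricle, was 0.75 over the tested members and 0.03 over all genes. Libraries did not overlap for 27 members (20 higher, 7 lower), against 46.5% of all genes. In hyperoxia 27 members differed, 15 higher and 12 lower in atria, against 48.8% of all genes (25.2% higher, 23.6% lower), with a median of 0.10 over the tested members and 0.01 over all genes. Here 22 members did not overlap (12 higher, 10 lower), against 32.9% of all genes. Fibroblast markers were higher in atria for 12 of 12 in room air, and for 7 of 12, with 3 lower, in hyperoxia. Their summed level was 8058 to 11208 CPM in hyperoxic atria, against 5188 to 6406 CPM in hyperoxic ventricles, and 15533 to 16618 CPM in room-air atria, against 5328 to 7313 CPM in room-air ventricles. All 12 macrophage markers were higher in atria at both oxygen levels, with sums of 305 to 480 CPM in hyperoxic atria, against 154 to 185 CPM in hyperoxic ventricles, and 237 to 253 CPM in room-air atria, against 117 to 153 CPM in room-air ventricles. Of 12 endothelial markers 2 were higher and 9 lower in atria in hyperoxia, and 2 higher and 7 lower in room air. Of 8 epicardial markers 6 were higher and 1 lower in hyperoxia, and 6 higher and 2 lower in room air. Smooth muscle and pericyte markers (10) were higher for 2 and lower for 6 in hyperoxia, and for 4 and 6 in room air, and endocardial and valve markers (8) for 5 and 2 in hyperoxia, and for 6 and 1 in room air. Their part in the chamber differences was not tested.

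**Figure D5:**
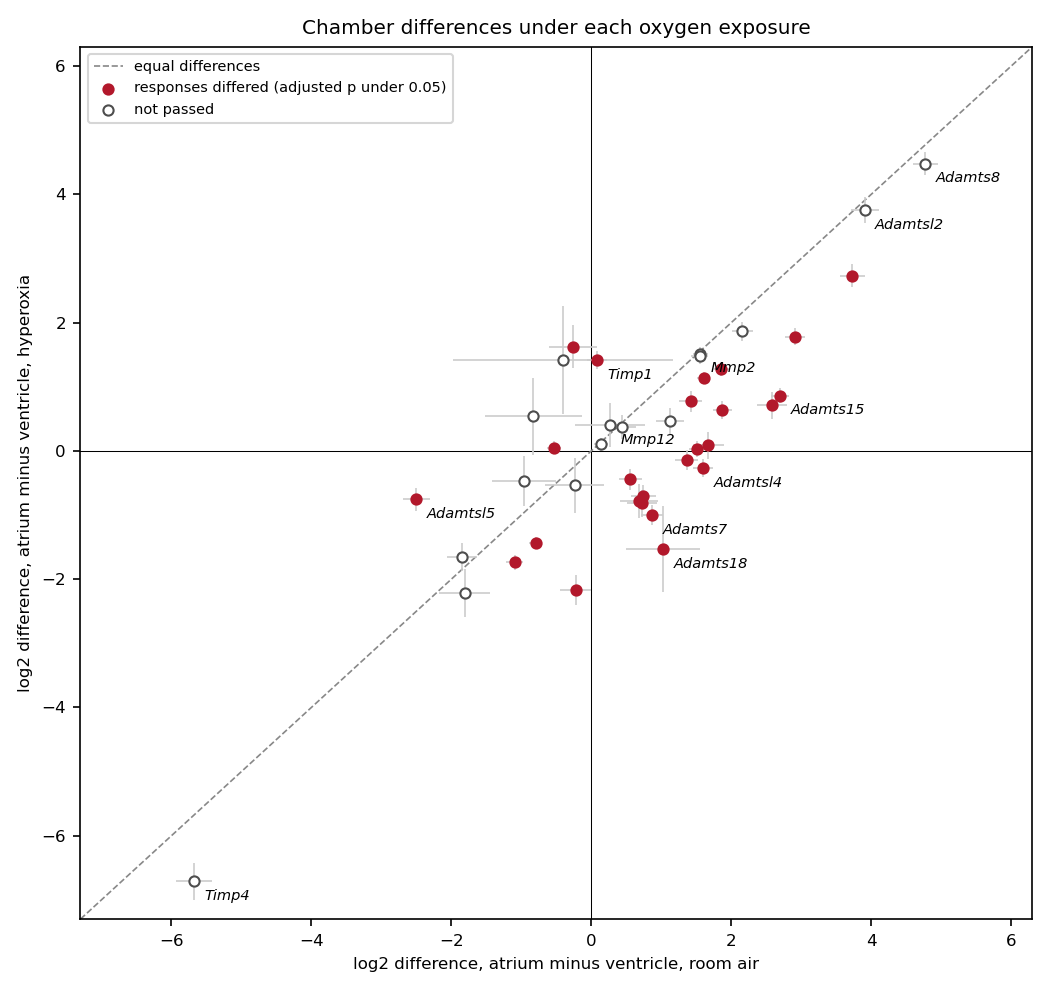
Log2 difference between atrium and ventricle for the 41 tested members, in room air on the horizontal and in hyperoxia on the vertical axis (bars, SE; n = 5 libraries per group; filled, response to hyperoxia differing between the chambers at an adjusted p under 0.05). Most filled points lie below the dashed line of equal differences, and Timp4 and Adamts8 lie at the ends of both axes.

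Adamts8 had the largest atrial excess of all members. It had 228, 194, 301, 223 and 219 CPM in hyperoxic atria, against 12, 10.1, 11.8, 8.21 and 10.02 CPM in hyperoxic ventricles. It had 326, 323, 343, 360.1 and 358 CPM in room-air atria, against 14.5, 6.79, 12.6, 12.1 and 16.5 CPM in room-air ventricles. The atria lay more than an order of magnitude higher, by 22.3-fold in hyperoxia (adjusted p = 1.3e-14) and 27.4-fold in room air (adjusted p = 1e-14). Its neighbour on chromosome 9, Adamts15, stands on the opposite strand (chr9:30942562-30963838 and chr9:30899155-30922452) and was also higher in atria, by 1.82-fold in hyperoxia and 6.48-fold in room air. Adamtsl2 was 13.6-fold higher in hyperoxic atria than in hyperoxic ventricles and 15-fold higher in room-air atria than in room-air ventricles. Adamtsl1 had 14.5, 12.3, 17.3, 11.1 and 17.5 CPM in hyperoxic atria, against 2.09, 1.82, 2.75, 2.34 and 1.94 CPM in hyperoxic ventricles, and 24.9, 26.3, 29.7, 27.8 and 28.7 CPM in room-air atria, against 3.12, 1.97, 2.16, 1.68 and 1.41 CPM in room-air ventricles. Exons of Adamts8 share bases with the predicted gene Gm29724 on the opposite strand.

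Timp4 had the largest ventricular excess. Against the counts of 1 to 11 per atrium given above, hyperoxic ventricles held 257, 278, 176, 275 and 365 counts and room-air ventricles 273, 285, 253, 311 and 333. The log2 difference, atrium minus ventricle, was -6.71 ± 0.29 (SE) in hyperoxia and -5.68 ± 0.26 (SE) in room air (adjusted p = 3e-14 and 9.1e-14). Exons of Timp4 share bases with Syn2 on the opposite strand. Timp2 was 2.20-fold higher in hyperoxic atria than in hyperoxic ventricles and 3.04-fold higher in room-air atria than in room-air ventricles. Timp1 differed in hyperoxia, by a log2 difference of 1.41 ± 0.14 (SE) with adjusted p = 2e-08, and did not pass in room air, at 0.08 ± 0.14 (SE) with adjusted p = 0.64. Timp3 did not pass at either oxygen level.

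Several enzymes were lower in atria. Adamts9, a proteoglycan protease of heart and vessel development, had 22.5, 15.4, 22.1, 16.3 and 23.4 CPM in hyperoxic atria, against 59.3, 72.6, 72.8, 64.8 and 63.8 CPM in hyperoxic ventricles. Its room-air values were 26.9, 28.1, 30.6, 22.5 and 28.5 CPM in atria, against 53.2, 55, 69.9, 60.4 and 53.4 CPM in ventricles. The log2 difference was -1.74 ± 0.12 (SE) in hyperoxia and -1.10 ± 0.12 (SE) in room air. Mmp15 (-1.43 ± 0.09 (SE) in hyperoxia and -0.79 ± 0.09 (SE) in room air), Mmp25 (-2.22 ± 0.38 (SE) and -1.81 ± 0.36 (SE)), Adamtsl3 (-1.65 ± 0.22 (SE) and -1.85 ± 0.22 (SE)) and Adamtsl5 (-0.75 ± 0.18 (SE) and -2.50 ± 0.19 (SE)) were lower in atria under both conditions, each with an adjusted p of at most 0.0017. Adamts5 was lower in atria in room air only by the test (-0.53 ± 0.10 (SE), adjusted p = 0.00012), and in hyperoxia it stood at 0.05 ± 0.10 (SE) with adjusted p = 0.72.

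Among those higher in atria, Mmp2 was 2.86-fold higher in hyperoxic atria than in hyperoxic ventricles and 2.95-fold higher in room-air atria than in room-air ventricles, and Mmp14 2.41-fold and 3.62-fold. Mmp19 had 9.51, 6.88, 8.97, 8.66 and 7.70 CPM in hyperoxic atria, against 2.54, 2.36, 2.42, 1.78 and 2.34 CPM in hyperoxic ventricles, and 10.5, 11.3, 11.3, 11.2 and 10.9 CPM in room-air atria, against 2.58, 1.67, 2.99, 2.05 and 3.04 CPM in room-air ventricles. Atria and ventricles did not overlap in Mmp19 at either oxygen level. Adamts10 had 139, 77.1, 120.3, 71 and 130.0 CPM in hyperoxic atria, against 65.5, 66.1, 60.3, 58.6 and 63.7 CPM in hyperoxic ventricles, and 191, 218, 214, 206 and 177 CPM in room-air atria, against 67.5, 86.1, 86.2, 50.7 and 84.5 CPM in room-air ventricles. Mmp17 averaged 3.20 ± 0.895 CPM in hyperoxic atria and 2.32 ± 0.454 CPM in hyperoxic ventricles, and 4.82 ± 0.695 CPM in room-air atria and 2.20 ± 0.444 CPM in room-air ventricles (SD, n = 5), and passed in room air alone by the test (adjusted p = 0.056 in hyperoxia and 6.2e-05 in room air).

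For 5 members, Adamts3, Adamts4, Adamts7, Adamts12 and Adamts17, the order of the chambers turned: they were lower in atria in hyperoxia and higher in atria in room air, and passed both ways. The share of all genes that turned so was not computed, and nothing is read from the count of 5. Adamts7 differed by -1.0 ± 0.16 (SE) in hyperoxia and 0.87 ± 0.16 (SE) in room air, and Adamts17 by -0.71 ± 0.18 (SE) and 0.75 ± 0.17 (SE). These 2 genes passed in both comparisons under every alternative run. Adamts3, Adamts4 and Adamts12 did not: in room air with the length slope as a covariate their differences were 0.29, 0.11 and 0.18 (adjusted p = 0.11, 0.65 and 0.068). In room air Adamts4 also lost its call without room-air atrium 1, 2 or 3, room-air ventricle 4 or 5 or hyperoxic ventricle 5 (adjusted p between 0.071 and 0.1), and in hyperoxia without hyperoxic atrium 2 (0.052). Adamts12 lost its call in hyperoxia without hyperoxic atrium 2 or 4 (0.072 and 0.075) or hyperoxic ventricle 2 (0.053).

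The remaining tested members can be placed by their means. Adamts6 averaged 28 ± 5.54 CPM in hyperoxic and 21.1 ± 5.21 CPM in room-air ventricles, Adamts14 8.72 ± 1.80 and 7.56 ± 0.861, Adamts18 0.176 ± 0.143 and 0.241 ± 0.129, Adamts20 1.49 ± 0.588 and 1.41 ± 0.464, and Mmp9 0.444 ± 0.172 and 0.424 ± 0.0710 (SD, n = 5). None of these 5 passed for hyperoxia in the ventricle. Adamts14, Mmp9 and Timp3 passed in none of the 5 comparisons.

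Genes that act with the members were counted from 2 lists. Of 30 tested partners of pericellular proteolysis (the plasminogen system, furin-type and BMP1-type proteases, ADAM and HTRA proteases, enhancers and other inhibitors) 6 rose and 13 fell in hyperoxic atria. Over all genes 19.7% rose and 24.2% fell, so the share of partners that rose was near that of all genes. The median log2 difference was -0.17 over the partners and -0.06 over all genes. Serpine2, an inhibitor of thrombin and of plasminogen activators, averaged 282 ± 18.7 CPM in hyperoxic and 121 ± 6.17 CPM in room-air atria (1.22 ± 0.08 (SE), adjusted p = 1.9e-10). Htra3, a secreted serine protease, averaged 39.2 ± 5.57 CPM in hyperoxic and 159.8 ± 15.2 CPM in room-air atria (-2.03 ± 0.20 (SE), adjusted p = 7.4e-08). Pcolce2, an enhancer of procollagen processing, and Htra1 fell too (-1.09 ± 0.13 (SE) and -0.65 ± 0.08 (SE)). In the ventricle 1 of the 30 rose and 5 fell, where 5.64% of all genes rose and 5.28% fell. The median there was -0.10 over the partners and -0.01 over all genes. Pcolce2 (-0.79 ± 0.13 (SE)), Pcolce (-0.41 ± 0.09 (SE)) and Bsg, a surface inducer of Mmp genes (-0.42 ± 0.12 (SE)), fell there, and Adam8 rose (1.10 ± 0.27 (SE), adjusted p = 0.014).

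Of 28 tested matrix substrates 1 rose and 18 fell in hyperoxic atria, where 19.7% of all genes rose and 24.2% fell. The median was -0.59 over the substrates and -0.06 over all genes. Lumican (Lum), a small proteoglycan of collagen fibrils, averaged 108 ± 18.3 CPM in hyperoxic and 273 ± 11.9 CPM in room-air atria (-1.34 ± 0.11 (SE), adjusted p = 3.6e-09). The basement-membrane protein Nid2 (-0.90 ± 0.09 (SE)), the collagen chain Col6a3 (-1.55 ± 0.17 (SE)) and the fibulin Fbln1, a cofactor of Adamts1 (-1.19 ± 0.14 (SE)), fell as well. In the ventricle 0 of 28 rose and 4 fell, where 5.64% of all genes rose and 5.28% fell, with a median of -0.14 beside -0.01 over all genes. The 4 were elastin (Eln, -1.19 ± 0.20 (SE)), biglycan (Bgn, -0.54 ± 0.10 (SE)), the fibulin Efemp2 (-0.56 ± 0.12 (SE)) and von Willebrand factor (Vwf, -0.50 ± 0.16 (SE)). Between the chambers, 19 of the 28 were higher and 4 lower in atria in hyperoxia, and 21 were higher and 1 lower in room air, against 48.8% and 55% of all genes called in either direction. The medians of the substrates were 0.85 in hyperoxia and 1.51 in room air, beside 0.01 and 0.03 over all genes.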

How the data were processed

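RNA of individual mice was sequenced after selection of polyadenylated transcripts and a stranded library preparation, per the labels' protocols, which name 2 RNA kits. The authors deposited counts per gene for each library, not normalised. The submitters' processing notes name fastp 0.20.1, STAR 2.7.6a, Subread 2.0.1 with featureCounts, Salmon 1.3.0 and the build GRCm38.p6, and the strand setting and annotation release are not given in the sources used here. Without the strand setting, reads of a gene and of a gene on the opposite strand cannot be told apart. The tables hold 0 columns of other samples.

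Counts were tested in R 4.3.3 with edgeR 4.0.16: filterByExpr over all 20 libraries, TMM scaling, 1 coefficient per group, robust quasi-likelihood fit, Benjamini-Hochberg adjustment over 16598 genes and a threshold of 0.05. The SE comes from the log2 difference and the square root of its F value, and the test was checked on simulated counts. Alternatives included DESeq2 1.42.0, voom with quality weights in limma 3.58.1, other scalings and filters, covariates and each library left out. Replicates of a group differed by more than sampling noise (smallest chi-square per degree of freedom 12.25), so none were merged. At 26510081 to 38244117 counts a library, a count of 0 allows up to 3 counts, which covers counting error only.

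Genes named with values are the 12 members with the smallest p in each comparison across oxygen levels, further members by p for the chambers, and Mmp2, Mmp14 and the Timp genes always. Mmp3, Mmp8 and Mmp13 were added after their values were seen. Members, gene lists and comparisons were chosen with earlier results of these data known, so no list is independent evidence of its direction. Promoter windows and sequences are RefSeq's (GRCm38.p6).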

Additional observations from a re-analysis of the deposited data

Results flagged for a closer look

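Of 164 groups of 5 libraries examined among the tested members, 6 (3.7%) held a library whose level lay far from the other 4, where chance gives about 5%. Hyperoxic ventricle 4 had 23.34 CPM of Adamts7 (others 36.2 to 39.78), 0.822 CPM of Mmp3 (others 0 to 0.1548) and 0.7809 CPM of Mmp13 (others 0.4022 to 0.4866). Hyperoxic ventricle 5 had 1.784 CPM of Mmp19 (others 2.34 to 2.539). Room-air ventricle 4 had 17.29 CPM of Adamts19 (others 26.66 to 29.2), and room-air atrium 5 had 0.1155 CPM of Mmp3 while the others had 0.

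The response to hyperoxia differed between the chambers for 25 members by the test of the difference itself (edgeR, adjusted p under 0.05). Among all genes tested 36.5% passed. The atrial minus ventricular log2 response was -1.835 for Adamts15, -1.868 for Adamtsl4, -1.484 for Mmp11, -1.869 for Adamts7, -1.506 for Adamts1, -1.874 for Mmp16, -1.232 for Adamts19, -1.132 for Adamts2, -1.942 for Adamts6 and -1.451 for Adamts17. It was -1.585 for Mmp28, -1.547 for Adamts3, -0.641 for Mmp15, -1.004 for Adamts12, -0.9925 for Adamtsl1, -0.5853 for Mmp14, -1.459 for Adamts4, -0.6428 for Adamts9, -0.4707 for Timp2, -2.557 for Adamts18 and -0.6465 for Adamts10. It was positive at 1.332 for Timp1, 1.746 for Adamtsl5, 0.5824 for Adamts5 and 1.885 for Adamts20. Adamts18 reached the filter on low counts mostly through room-air atria, and the calls of Adamts18 and Adamts10 depended on the setting.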

How the results depend on the processing

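The number of members called for hyperoxia in the ventricle (8) was 2 under a Y-linked covariate, 4 under Y-linked and length-slope covariates, 1 with Myl7 as a covariate, 2 without the 3 ventricles that lay apart (hyperoxic ventricle 4, room-air ventricles 1 and 4), and 3 to 8 with each library left out. With the length slope alone it was 7, of which 2 were higher and 5 lower. The other counts stayed within 1.5 times of those reported: 26 to 39 for hyperoxia in the atrium (32 to 35 with each library left out), 19 to 26 for the difference of responses (24 to 26), 29 to 33 for the chambers in room air (29 to 32) and 26 to 33 in hyperoxia (25 to 30). Calls held in every alternative for 22 of 34 members in the atrium, 1 of 8 in the ventricle (Mmp12), 17 of 25 for the difference of responses, 27 of 30 for the chambers in room air and 24 of 27 in hyperoxia. With Y-linked reads and the slope together the 12 atrial calls lost were those of Adamts3, Adamts5, Adamts8, Adamts9, Adamts18, Mmp3, Mmp8, Mmp13, Mmp17, Mmp19, Mmp28 and Timp4. Mmp2 and Timp3, not called for hyperoxia in the atrium, each passed in 4 of 32 alternatives. Partner and substrate genes were not refitted. Among the members' values that were refitted, the called value that turned its direction was the difference of responses of Adamts10, which was 0.0016 with the length slope and 0.061 with both covariates. The ventricular log2 difference of Timp4 was 0.16 with Y-linked reads, 0.087 with the slope and 0.32 with both, that of Timp3 -0.019 with the slope and -0.0099 with both, and that of Timp1 0.12 with the slope, 0.11 with both and 0.0056 without the 3 ventricles that lay apart. With the replicate number as a block, 34, 8, 24, 31 and 28 members were called for hyperoxia in the atrium, in the ventricle, the difference of responses, and the chambers in room air and in hyperoxia. The calls of Mmp8 in the atrium (1.76, adjusted p = 0.055) and of Adamts18 in the difference of responses (-2.09, adjusted p = 0.071) were lost under the block. Same-numbered libraries correlated in their deviations between -0.05 and 0.58, and 5 of 9 numbers correlated best with another number. Room-air numbers 3, 4 and 5 correlated best with their own (0.541, 0.582 and 0.285), as did hyperoxic number 5 (0.248). Since 4 of 9 pairs lay at or below 0.1 and the labels state no link, the numbers were not taken to pair the libraries. The numbers shared by hyperoxic atria and ventricles did match in these reads: 1, 4 and 5 had more Xist reads in both chambers. Number 2 had more Y-linked reads in both. Whether same-numbered libraries came from the same mouse is therefore not known. The covariates were chosen after seeing the data, and the cause of each change was not tested. Genes of few counts (Mmp3, Mmp8, Mmp13, Mmp25, Adamts18 and atrial Timp4) are limited by depth. Y-linked reads and oxygen level largely coincide.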
